A study of Homo sapiens with 4 samples.

Results

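The 37 genes described here carry glucose into the cell, break it down to pyruvate and handle the lactate and pyruvate that result. They were taken as a list of gene symbols, drawn up with earlier results of these data known, from the 28103 symbols of a poly(A) RNA-seq count table, and all 37 were present. The table covers HEL cells, a line from a human erythroleukaemia that carries erythroid as well as megakaryocytic traits and is labelled erythroblast, in 2 groups of 2 libraries. The Ctrl group has the WT genotype in the labels, and the AFF4_KD group carries a knockdown of AFF4, by a method not given in the sources used here. Both groups were grown in the same medium, RPMI-1640 with serum, and no further allele, agent or time is named. The labels number the libraries as replicates without saying that they came from separate cultures, so each p-value is set against the spread of these 4 libraries alone, and that spread may be technical. They name more than 1 RNA extraction kit and sequencer without tying them to libraries, so no batch could be assigned.

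Glucose enters cells through the GLUT carriers of the SLC2A family and is trapped by hexokinase as glucose 6-phosphate. Phosphofructokinase-1 commits it to glycolysis, under the control of fructose 2,6-bisphosphate made and destroyed by the PFKFB enzymes. Pyruvate kinase ends the chain, after which lactate dehydrogenase reduces pyruvate to lactate, the SLC16A carriers export it, and the pyruvate dehydrogenase complex, held off by PDK kinases, passes pyruvate to mitochondria. Mature red cells have no mitochondria and live on glycolysis, so erythroid cells are known for their own forms of some of these enzymes, among them the R form of pyruvate kinase encoded by PKLR. AFF4 holds together the super elongation complex, through which the kinase P-TEFb reaches paused RNA polymerase II, and the series title names the release of paused polymerase as its subject.

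Upstream sequence is shown for PKLR, the member that rose, and for HK1 and HK2, hexokinases that stood on opposite sides of no change. The RefSeq promoter table (GRCh38.p14) held 62 windows for 33 of the 37 genes, since some genes have several starts. The printed windows are the 250 bases before a start, and none overlaps an exon of GENCODE v29. Capitals mark matches, on either strand, to 4 short motifs known from erythroid and glycolytic promoters. AGATAA is the form bound by the erythroid regulator GATA1. CACCC is bound by Krüppel-like factors. ACGTG is the core of the hypoxia response element. CACGTG, the E-box, overlaps it, since it holds ACGTG on both strands.
PKLR, chr1:155301439-155301688, minus strand: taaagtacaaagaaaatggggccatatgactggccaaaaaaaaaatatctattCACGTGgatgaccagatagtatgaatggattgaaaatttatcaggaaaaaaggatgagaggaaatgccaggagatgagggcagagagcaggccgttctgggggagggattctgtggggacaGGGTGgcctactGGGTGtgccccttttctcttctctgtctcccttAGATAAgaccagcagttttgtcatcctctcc
HK1, chr10:69334364-69334613, plus strand: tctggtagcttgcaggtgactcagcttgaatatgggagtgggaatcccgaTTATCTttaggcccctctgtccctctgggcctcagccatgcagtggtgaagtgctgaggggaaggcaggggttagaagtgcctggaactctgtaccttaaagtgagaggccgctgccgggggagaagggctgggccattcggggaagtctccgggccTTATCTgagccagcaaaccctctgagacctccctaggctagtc
HK2, chr2:74834920-74835169, plus strand: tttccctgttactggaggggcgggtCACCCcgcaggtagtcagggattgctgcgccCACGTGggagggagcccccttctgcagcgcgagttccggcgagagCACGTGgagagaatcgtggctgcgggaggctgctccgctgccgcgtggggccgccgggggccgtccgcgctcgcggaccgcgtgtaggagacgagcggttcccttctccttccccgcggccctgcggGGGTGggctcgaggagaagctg
The PKLR window lies before the more upstream of the 2 starts listed for it, and the HK1 and HK2 windows lie in introns of those genes as GENCODE v29 draws them. The printed PKLR window held AGATAA 31 bases and CACCC 76 and 64 bases before the start, and CACGTG 197 bases before it. The other PKLR window, not printed, held none of the 4 motifs. The HK1 window held AGATAA 200 and 43 bases before its start and no other match. It is 1 of 7 windows listed for HK1 and was shown because it alone of them holds AGATAA, whereas 5 of the others hold CACCC. The HK2 window, 1 of 2, held 2 CACGTG and 2 CACCC matches and no AGATAA. The other HK2 window, not printed, lies in annotated exons over all its 250 bases. It held 2 ACGTG and 1 CACCC matches, and neither CACGTG nor AGATAA. Since the HK1 window was picked by its motif and neither hexokinase passed the edgeR test, the printed windows do not contrast the 2 genes. Among all 35116 windows of the table, 9.2% held AGATAA, 54.7% CACCC, 18.5% ACGTG and 6.3% CACGTG. In the members' 62 windows the shares were 8.1%, 66.1%, 33.9% and 11.3% in the same order. A match is a string of letters and not evidence of binding, and the counts per gene do not tell which start was used.

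Another set of sequences bears on how SLC2A3 can be counted. SLC2A14 is a close copy of SLC2A3 on the same chromosome arm, and the longest annotated coding sequences of the pair were 96.8% identical over 1491 aligned bases, with 48 differing bases and a longest identical run of 137 bases. Of the 50-base stretches in SLC2A14 transcripts, 16.01% also occurred in SLC2A3 transcripts. The 60-base coding stretch within an exon that differs most is shown, with the 7 differing bases in capitals, from GENCODE v29.
SLC2A3, chr12:7930542-7930601, minus strand: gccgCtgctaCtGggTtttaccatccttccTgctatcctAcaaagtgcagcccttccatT
SLC2A14, chr12:7828766-7828825, minus strand: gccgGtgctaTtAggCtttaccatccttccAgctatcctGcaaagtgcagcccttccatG
The strand setting of the counting and the treatment of reads that fit several places were not given in the sources used here, which leaves the split of reads between the pair uncertain.

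Summed gene counts lay between 14903878 and 19129008 per library. CPM below are counts scaled to a common library size by edgeR's TMM method. AFF4, the targeted gene, had 1650 and 1033 reads in Ctrl against 338 and 319 in AFF4_KD, and its log2 fold change was -2.07 ± 0.19 (SE, with an edgeR adjusted p of 0.0268). With a stricter filter on low counts that adjusted p was 0.0552. At an edgeR adjusted p under 0.05, 0.641% of 13572 tested genes differed, 47 of them higher (0.346%) and 40 lower (0.295%). All 11 erythroid and 7 megakaryocytic marker genes were detected, the latter with summed levels of 1519 to 2473 CPM. Of the 33 markers of other cell types, 24 stayed under 1 CPM in every library, and 9 of these had 0 reads (CD3D, CD3E, CD3G, COL1A2, COL3A1, DCN, LUM, KRT19 and MYL1). The highest of the rest were CD4 at 81.1 to 138 CPM, LYZ at 48.6 to 59.9, KRT18 at 28.9 to 40.1 and KRT8 at 13.4 to 25.4. The 2 Ctrl libraries were farther from each other than the 2 knockdown libraries (SD of the log2 difference over tested genes 0.492 against 0.225). The difference of Ctrl 2 from Ctrl 1 followed transcript GC content, with a Spearman's rho of 0.83 across 13193 genes, a description across genes of 1 pair of libraries that differ in depth. The difference of knockdown 2 from knockdown 1 had a rho of 0.42 across the same genes.

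Of the 37 genes, 34 passed the filter on low counts. SLC2A3, the high-affinity glucose transporter GLUT3, fell to 0.508 of its Ctrl level, and PKLR rose 2.77-fold. These were the only members past the threshold, 1 of 34 in each direction beside 0.295% and 0.346% of all tested genes. At an unadjusted p under 0.05, 9 of the 34 members were lower and 1 higher, where 8.19% and 6.79% of all tested genes were. Both knockdown libraries lay below both Ctrl libraries for 16 of the 34 members and above them for 7, and the groups overlapped for 11. The same separation was found below in 23% and above in 23.1% of tested genes. The median log2 fold change was -0.11 over the 34 members and -0.01 over all tested genes, with 24 members negative and 10 positive. In bulk RNA, fewer cells of a state and less RNA per cell cannot be told apart.

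The number of members called moved with the setting, and so did the share of all tested genes called in either direction. Without a filter 9 members were lower and 1 higher (3.89% of all genes), and in DESeq2 4 and 1 (2.99%). After removal of a trend with GC content from each library 12 were lower and 4 higher (31% of all genes). With the filter of at least 5 CPM in 2 libraries none of 31 passed (0.0462%). Without Ctrl 1 the members called were 16 lower and 4 higher (44% of all genes), and without Ctrl 2 they were 15 and 11 (48.4%). Without knockdown 1 or knockdown 2 none passed (0.331% and 0.366%). The members together took 1.75% and 2.08% of the scaled counts in Ctrl 1 and Ctrl 2 against 1.56% and 1.601% in the knockdown pair. The summed level of the erythroid markers was 12117 and 14112 CPM in Ctrl against 9023 and 8900.1 CPM in AFF4_KD. That sum was carried by the fetal globins HBG1 and HBG2, at 10041 and 11400 CPM in Ctrl against 6479 and 6287 CPM in AFF4_KD. The other 9 markers summed to 2076 and 2712 against 2544 and 2614 CPM, which overlap. Only HBG1 and HBG2 of the 11 lay lower in both knockdown libraries, while GYPB, EPOR and TFRC lay higher in both and 6 overlapped. The megakaryocytic markers summed to 1646 and 2473 CPM in Ctrl against 1519 and 1640 CPM in AFF4_KD. Of these, ITGB3, PF4, PPBP and VWF lay lower in both knockdown libraries, ITGA2B, GP1BA and GP9 overlapped, and none lay higher. HBG1 and ITGB3 themselves passed the edgeR test, both lower (adjusted p = 0.0394 and 0.0415). The part of erythroid or megakaryocytic state in the members' values was not tested.

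**Figure D1:**
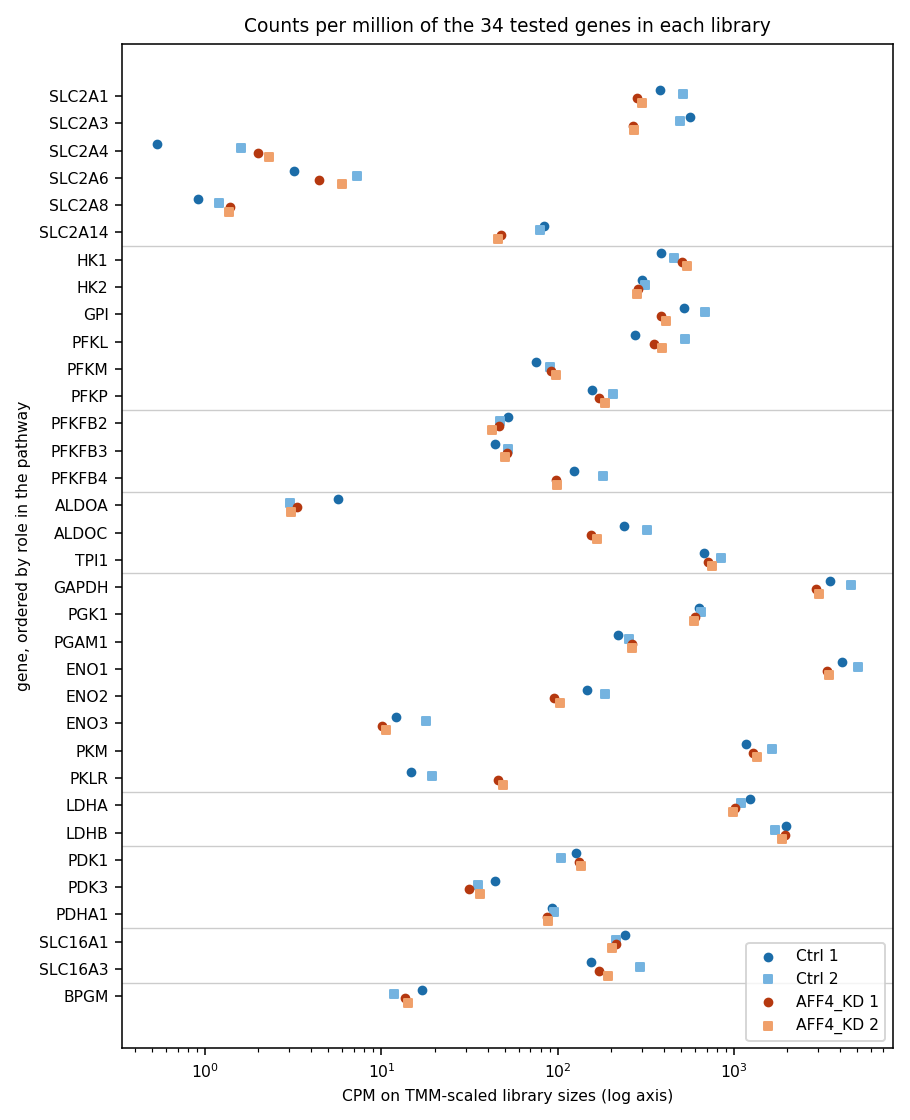
Expression (CPM, on TMM-scaled library sizes, log axis) of the 34 tested genes in each of the 4 libraries, ordered by role, with Ctrl in blue and knockdown in orange. ENO1 and GAPDH lie highest at 2924 to 5046 CPM, and the knockdown points of PKLR lie to the right of both Ctrl points.

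**Figure D2:**
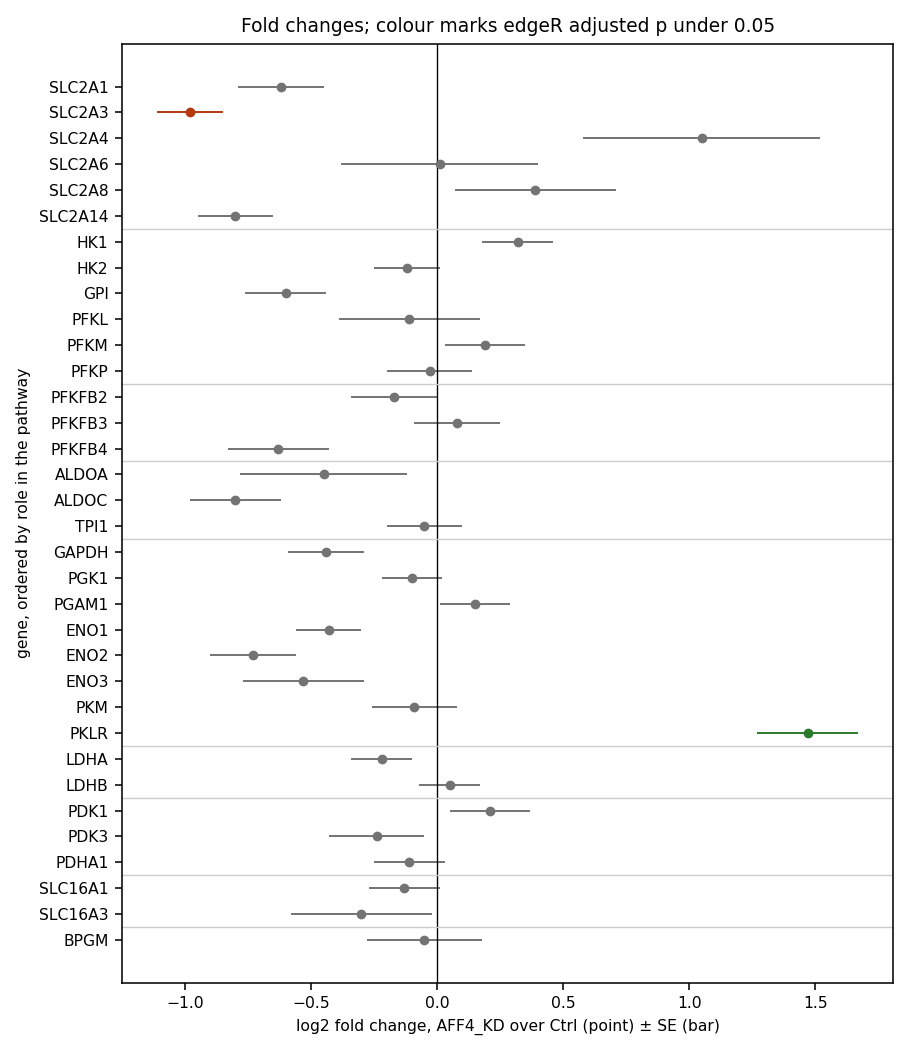
The log2 fold change of each tested gene, knockdown over Ctrl, with its standard error as a bar, ordered by role. SLC2A3 (-0.98, red) and PKLR (1.47, green) passed the edgeR test and the grey genes did not.

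Of the 6 glucose uptake genes, SLC2A3 fell and the other 5 did not pass, and 3 of the 6 fold changes were negative and 3 positive. SLC2A3 (chromosome 12, 7919230 to 7936275, minus strand, hg38) was at 559.7 and 496 CPM in Ctrl against 267 and 269 CPM in AFF4_KD. Both knockdown libraries were close to each other and well below both Ctrl libraries. The mean was 528 ± 45.03 CPM in Ctrl against 268 ± 1.40 CPM in AFF4_KD (SD, n = 2 each), and its log2 fold change was -0.98 ± 0.13 (SE, with an edgeR adjusted p of 0.0394). The call was lost with a filter of at least 5 CPM in 2 libraries (adjusted p = 0.0573), without knockdown 1 (0.467) and without knockdown 2 (0.603), while the log2 fold change stayed between -1.06 and -0.88 over all 15 alternatives. SLC2A14, the copy of SLC2A3 shown above, was at 83.5 and 79.5 CPM in the Ctrl pair against 47.5 and 46.03 in the knockdown pair. Its groups were likewise separate, and its log2 fold change was -0.80 ± 0.15 (SE, with an edgeR adjusted p of 0.0785), short of the threshold.

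SLC2A1 encodes GLUT1, the main glucose carrier of erythroid cells (chromosome 1, 42925375 to 42959176, minus strand). It was at 378 CPM in Ctrl 1 and 516 in Ctrl 2, against 280.2 and 301 CPM in knockdown 1 and 2. The knockdown libraries were the lower ones, but the Ctrl libraries were 0.45 apart on the log2 scale. Its log2 fold change was -0.62 ± 0.17 (SE, with an edgeR adjusted p of 0.167), and with 1 library left out the value ran from -0.83 to -0.38. The remaining carriers were scarce. SLC2A4, the insulin-responsive GLUT4 of muscle and fat, had 10 and 24 reads in Ctrl against 36 and 39 in AFF4_KD. Its log2 fold change of 1.05 ± 0.47 (SE) rests on those few reads, did not pass (edgeR adjusted p = 0.357) and ran from 0.42 to 1.99 with 1 library left out. SLC2A6, a lysosomal carrier, and the intracellular SLC2A8 stayed between 0.91 and 7.23 CPM, with log2 fold changes of 0.01 ± 0.39 and 0.39 ± 0.32 (SE).

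The hexokinases had fold changes of opposite sign. HK1, the form of red cells and brain (chromosome 10, 69269984 to 69401884, plus strand), was at 382 and 454 CPM in Ctrl against 506 and 540.3 CPM in AFF4_KD. Every knockdown library lay above every Ctrl library. HK2, the form that growth and hypoxia induce in many cells (chromosome 2, 74833981 to 74893359, plus strand), was at 301 and 313 CPM in the Ctrl pair against 285 and 281 in the knockdown pair. Here the knockdown libraries were slightly below the Ctrl libraries. The log2 fold changes were 0.32 ± 0.14 and -0.12 ± 0.13 (SE), and neither passed (edgeR adjusted p = 0.348 and 0.760). HK3, a form of white blood cells, had 0 to 2 reads per library and was not tested. GPI, which turns glucose 6-phosphate into fructose 6-phosphate (chromosome 19, 34359480 to 34402413, plus strand), was at 518 CPM in Ctrl 1 and 683 in Ctrl 2, against 384 and 411 CPM in knockdown 1 and 2. Both knockdown libraries were below both Ctrl libraries, and its log2 fold change was -0.60 ± 0.16 (SE, with an edgeR adjusted p of 0.158).

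Phosphofructokinase-1 is a tetramer of liver (PFKL), muscle (PFKM) and platelet (PFKP) type subunits, and all were expressed. PFKL was at 274 and 523 CPM in Ctrl against 352 and 388 CPM in AFF4_KD. The Ctrl libraries bracketed both knockdown libraries and differed from each other by 0.93 on the log2 scale. PFKL had a log2 fold change of -0.50 without Ctrl 1 and 0.43 without Ctrl 2, against -0.11 ± 0.28 (SE) with all libraries. PFKP was at 156 and 206 CPM in the Ctrl pair against 171 and 184 in the knockdown pair, again with the knockdown between the Ctrl libraries, and ran from -0.21 to 0.18 with 1 library left out. PFKM was at 74.7 CPM in Ctrl 1 and 90.7 in Ctrl 2, against 91.1 and 97.3 CPM in knockdown 1 and 2. Both its knockdown values lay above both Ctrl values, by as little as the step from 90.7 to 91.1 CPM. PFKL, PFKM and PFKP had edgeR adjusted p of 0.915, 0.685 and 0.965.

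Of the PFKFB enzymes, which set the level of fructose 2,6-bisphosphate, PFKFB4 had the highest level per exonic length. It was at 123 and 181 CPM in Ctrl against 97.8 and 98.5 CPM in AFF4_KD (chromosome 3, 48517684 to 48562015, minus strand). Its knockdown libraries were nearly equal and below both Ctrl libraries, which differed by 0.55 on the log2 scale. Its log2 fold change was -0.63 ± 0.20 (SE, with an edgeR adjusted p of 0.209). PFKFB3, the form with the strongest bias towards synthesis, was at 44.1 and 52.3 CPM in the Ctrl pair against 51.5 and 50.4 in the knockdown pair, and PFKFB2, known from heart, at 52.3 CPM in Ctrl 1 and 47.3 in Ctrl 2, against 46.4 and 42.3 CPM in knockdown 1 and 2. The groups of PFKFB3 overlapped. Both knockdown values of PFKFB2 lay below both Ctrl values, by as little as the step from 47.3 to 46.4 CPM. The log2 fold changes of PFKFB3 and PFKFB2 were 0.08 ± 0.17 and -0.17 ± 0.17 (SE, with an edgeR adjusted p of 0.899 and 0.733). PFKFB1, the liver form, had 2 to 7 reads per library and was not tested.

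Aldolase splits fructose 1,6-bisphosphate into 2 triose phosphates, and nearly all its reads were assigned to ALDOC, the form best known from brain (chromosome 17, 28573115 to 28577264, minus strand). ALDOC was at 237 and 320.1 CPM in Ctrl against 154 and 166 CPM in AFF4_KD. The knockdown values were below both Ctrl values, and its log2 fold change was -0.80 ± 0.18 (SE, with an edgeR adjusted p of 0.0997). ALDOA, the form that most proliferating cells and red cells use, had only 106 and 45 reads in Ctrl against 60 and 52 in AFF4_KD. Its groups overlapped, with a log2 fold change of -0.45 ± 0.33 (SE, with an edgeR adjusted p of 0.605), or 0.09 without Ctrl 1 and -0.82 without Ctrl 2. Its low count in every library cannot be read as low expression. In GENCODE v29, 42.3% of the exonic bases of ALDOA lie in exons of another gene on the same strand, and the count table lists beside it LOC112694756, which RefSeq places across ALDOA and which had 9 to 16 reads. How the authors counted reads that fit both genes was not given in the sources used here, and its part in the low count was not tested. TPI1, which interconverts the triose phosphates, was at 671 and 846 CPM in the Ctrl pair against 710.5 and 753 in the knockdown pair. The groups overlapped, with a log2 fold change of -0.05 ± 0.15 (SE, with an edgeR adjusted p of 0.924).

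Below the triose phosphates, GAPDH, which makes the pathway's NADH (chromosome 12, 6533927 to 6538374, plus strand), was at 3476 CPM in Ctrl 1 and 4616 in Ctrl 2, against 2924 and 3039.6 CPM in knockdown 1 and 2. Both knockdown values were below both Ctrl values, yet the distance from Ctrl 1 to knockdown 2 was smaller than the distance between the Ctrl libraries. Its log2 fold change was -0.44 ± 0.15 (SE, with an edgeR adjusted p of 0.248). PGK1, the first ATP-yielding kinase (chromosome X, 77910739 to 78129296, plus strand), was at 631 and 645 CPM in Ctrl against 598 and 593 CPM in AFF4_KD. These were among the tightest values of the pathway, and the log2 fold change was -0.10 ± 0.12 (SE, with an edgeR adjusted p of 0.792). PGAM1, the phosphoglycerate mutase of most tissues, was at 219.7 and 254 CPM in the Ctrl pair against 262 and 263 in the knockdown pair, with a log2 fold change of 0.15 ± 0.14 (SE, with an edgeR adjusted p of 0.716). Since 30.5% of the 50-base stretches of PGAM1 transcripts occur in other annotated genes, its count depends on how such reads were treated. PGAM2, the muscle form, had 1 read in all and was not tested. BPGM makes 2,3-bisphosphoglycerate, which lowers the oxygen affinity of haemoglobin in red cells. It was at 16.97 CPM in Ctrl 1 and 11.7 in Ctrl 2, against 13.7 and 14.2 CPM in knockdown 1 and 2, a low level at which the Ctrl libraries bracketed the knockdown, with a log2 fold change of -0.05 ± 0.23 (SE, with an edgeR adjusted p of 0.954).

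Enolase forms phosphoenolpyruvate, and ENO1 took the most reads of any member (chromosome 1, 8861000 to 8879250, minus strand). ENO1 was at 4079.8 and 5046 CPM in Ctrl against 3338 and 3433 CPM in AFF4_KD. The knockdown values lay below both Ctrl values, and its log2 fold change was -0.43 ± 0.13 (SE, with an edgeR adjusted p of 0.203). ENO2, the neuronal form (chromosome 12, 6913745 to 6923698, plus strand), was at 146 and 184 CPM in the Ctrl pair against 95.6 and 104 in the knockdown pair. It was lower in both knockdown libraries too, with a log2 fold change of -0.73 ± 0.17 (SE, with an edgeR adjusted p of 0.109). ENO3, the muscle form, was at 12.2 CPM in Ctrl 1 and 17.9 in Ctrl 2, against 10.1 and 10.6 CPM in knockdown 1 and 2, and its groups were separate at a low level (log2 fold change -0.53 ± 0.24, SE, with an edgeR adjusted p of 0.363).

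Pyruvate kinase is encoded by PKM in most tissues and by PKLR in liver and red cells. PKLR (chromosome 1, 155289293 to 155301438, minus strand, hg38) was at 14.8 and 19.4 CPM in Ctrl against 45.9 and 48.8 CPM in AFF4_KD. Both knockdown libraries were more than 2-fold above the higher Ctrl library. The mean was 17.1 ± 3.28 CPM in Ctrl against 47.4 ± 2.08 CPM in AFF4_KD (SD, n = 2 each), and its log2 fold change was 1.47 ± 0.20 (SE, with an edgeR adjusted p of 0.0394). The call was lost with a filter of at least 5 CPM in 2 libraries (adjusted p = 0.0749), without knockdown 1 (0.0779) and without knockdown 2 (0.203), with log2 fold changes from 1.29 to 1.68 over all 15 alternatives. Of the exonic bases of PKLR, 17.6% lie opposite exons of HCN3, an ion channel gene, and without a known strand setting reads there cannot be told apart. HCN3 itself had 15 and 26 reads in Ctrl against 29 and 29 in AFF4_KD, against 276 and 290 reads in Ctrl against 830 and 822 in AFF4_KD for PKLR. PKM (chromosome 15, 72199029 to 72231822, minus strand) was at 1167 and 1631 CPM in the Ctrl pair against 1284 and 1353 in the knockdown pair. The Ctrl libraries bracketed the knockdown, and the log2 fold change was -0.09 ± 0.17 (SE, with an edgeR adjusted p of 0.892), or -0.30 without Ctrl 1 and 0.17 without Ctrl 2. The counts do not separate the M1 and M2 splice forms of PKM.

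Lactate dehydrogenase and the exporters showed small differences. LDHA, the subunit that favours lactate formation (chromosome 11, 18394388 to 18408425, plus strand), was at 1230.2 CPM in Ctrl 1 and 1098 in Ctrl 2, against 1006 and 990.2 CPM in knockdown 1 and 2. Its groups were separate, with a log2 fold change of -0.22 ± 0.12 (SE, with an edgeR adjusted p of 0.470). LDHB, the subunit of heart and red cells (chromosome 12, 21635342 to 21757857, minus strand), was at 1964 and 1709.9 CPM in Ctrl against 1934 and 1867 CPM in AFF4_KD, and its groups overlapped (log2 fold change 0.05 ± 0.12, SE, with an edgeR adjusted p of 0.911). Of its exonic bases, 33.4% lie in exons of another gene on the same strand. SLC16A1, the carrier MCT1, was at 241 and 214 CPM in the Ctrl pair against 213 and 203 in the knockdown pair, with a log2 fold change of -0.13 ± 0.14 (SE, with an edgeR adjusted p of 0.760). The exporter of glycolytic cells, SLC16A3 (MCT4), was at 155 CPM in Ctrl 1 and 294 in Ctrl 2, against 172 and 192 CPM in knockdown 1 and 2. Ctrl 2 stood above the other libraries, and the log2 fold change of -0.30 ± 0.28 (SE, with an edgeR adjusted p of 0.708) became -0.69 without Ctrl 1 and 0.23 without Ctrl 2.

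At the entry to mitochondria, PDHA1, the catalytic alpha subunit of pyruvate dehydrogenase, was at 92.7 and 95.7 CPM in Ctrl against 86.6 and 87.9 CPM in AFF4_KD. PDK1, a kinase that switches the complex off, was at 127 and 104 CPM in the Ctrl pair against 132 and 136 in the knockdown pair. Both knockdown libraries were above both Ctrl libraries for PDK1. PDK3, another such kinase, was at 44.1 CPM in Ctrl 1 and 35.5 in Ctrl 2, against 31.2 and 36.4 CPM in knockdown 1 and 2, with overlapping groups. The log2 fold changes of PDHA1, PDK1 and PDK3 were -0.11 ± 0.14, 0.21 ± 0.16 and -0.24 ± 0.19 (SE), and none of them passed (edgeR adjusted p = 0.810, 0.609 and 0.656).

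Ratios of isoenzymes within a library do not depend on how libraries are scaled. Of 14 pairs, 13 could be computed, and the groups were separate for 8, where 50.3% of all pairs of tested genes with reads in every library were. With 2 libraries against 2, an exact two-sided permutation test cannot go below p = 0.333, the value these 8 reached (Benjamini-Hochberg adjusted over the 13 ratios, 0.541), so no ratio could pass. For 5 pairs the nearest gap between groups was wider than both gaps within a group, which held for 22.1% of all such pairs of genes. The log2 ratio of LDHA to LDHB counts was -0.67 and -0.64 in Ctrl against -0.94 and -0.91 in AFF4_KD. HK2 to HK1 was -0.34 and -0.53 in Ctrl against -0.83 and -0.94 in AFF4_KD. PDK3 to PDK1 was -1.52 and -1.55 in Ctrl against -2.08 and -1.90 in AFF4_KD. In all of these the first-named gene made up less in the knockdown. ENO2 to ENO1 was -4.80 and -4.78 in Ctrl against -5.13 and -5.05 in AFF4_KD, and PFKFB4 to PFKFB3 was 1.48 and 1.79 in Ctrl against 0.93 and 0.97 in AFF4_KD. For SLC16A3 to SLC16A1 the Ctrl libraries were far apart and the groups overlapped, at -0.64 and 0.46 in Ctrl against -0.32 and -0.09 in AFF4_KD. SLC2A3 to SLC2A1 and PFKFB2 to PFKFB3 count as separate, but only by 0.01 and 0.00, with Ctrl libraries 0.62 and 0.39 apart. SLC2A3 to SLC2A1 was 0.57 and -0.06 in Ctrl against -0.07 and -0.16 in AFF4_KD. The ratio of SLC2A14 to SLC2A3 was -2.75 and -2.64 in Ctrl against -2.49 and -2.55 in AFF4_KD, a difference of 0.17 in favour of SLC2A14.

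**Figure D3:**
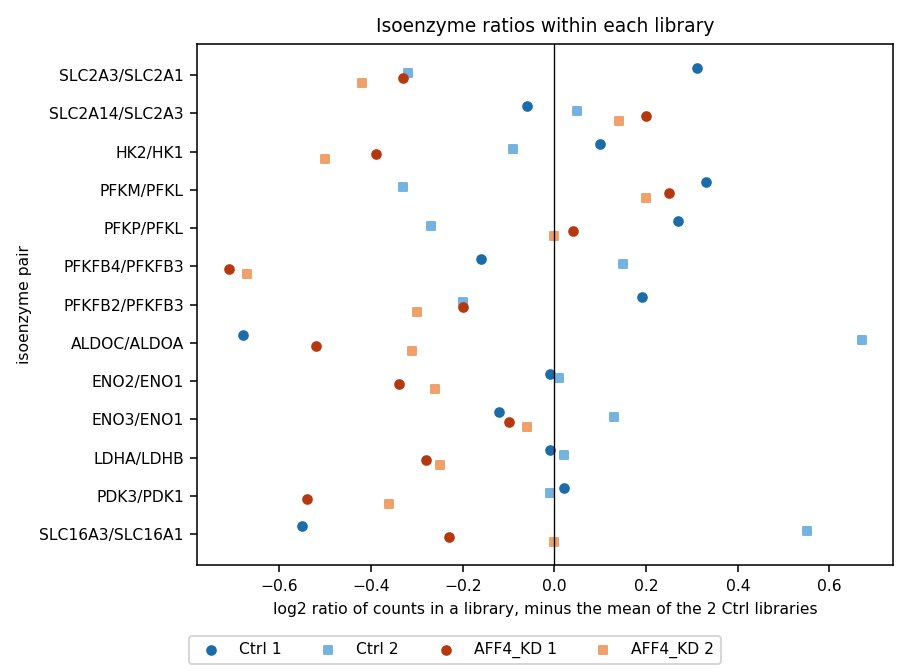
The log2 ratio of the counts of 2 isoenzymes in each library, minus the mean of the 2 Ctrl libraries, for 13 pairs. For LDHA/LDHB, ENO2/ENO1, PDK3/PDK1, HK2/HK1 and PFKFB4/PFKFB3 the orange knockdown points lie left of both blue Ctrl points, whereas the Ctrl points of ALDOC/ALDOA and SLC16A3/SLC16A1 are 1.35 and 1.10 apart.

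Levels of different genes were compared as CPM per kb of exonic length, using the union of all annotated exons, which understates genes with long alternative exons. On this scale GAPDH was highest in Ctrl at 1357 ± 270.4 CPM per kb, followed by ENO1 at 865 ± 129.5 and LDHB at 616 ± 60.1 (mean ± SD, n = 2). The Ctrl libraries of these 3 genes did not overlap. SLC2A1 and SLC2A3 were at 94.6 ± 20.7 and 85.7 ± 7.31, closer than the spread of SLC2A1. PKLR was at 5.40 ± 1.03 beside 163 ± 38.2 for PKM.

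Summed over the genes of a step, the glucose transporters stood at 187 and 207 CPM per kb in Ctrl against 113 and 118 in AFF4_KD. Enolase stood at 810.2 and 1004 CPM per kb in Ctrl against 657 and 677 in AFF4_KD. In these sums both knockdown libraries lay below both Ctrl libraries. The hexokinase sum was 110.5 and 124 CPM per kb in Ctrl against 127 and 132 in AFF4_KD, slightly above, with HK1 forming 54.99% and 58.2% in Ctrl against 63.1% and 64.9% in AFF4_KD. The pyruvate kinase sum overlapped between groups, at 141 and 196 CPM per kb in Ctrl against 164 and 173 in AFF4_KD. Within it the share of PKLR was 3.31% and 3.12% in Ctrl against 8.82% and 8.89% in AFF4_KD, so PKM remained the larger part. The lactate dehydrogenase sum also overlapped, at 856 and 750.1 CPM per kb in Ctrl against 810.4 and 785 in AFF4_KD, and LDHA formed 23.1% and 23.6% in Ctrl against 19.98% and 20.3% in AFF4_KD. These sums are descriptions without a test.

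**Figure D4:**
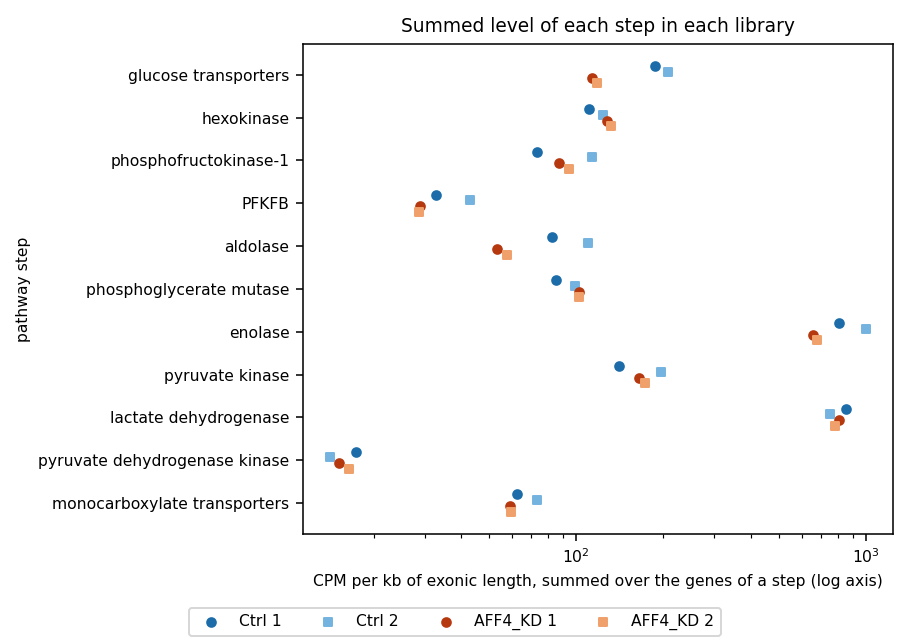
Summed CPM per kb of exonic length (log axis) of the genes of each pathway step in the 4 libraries. The transporter, PFKFB, enolase and monocarboxylate transporter sums are lower in both knockdown libraries, as is the aldolase sum, whose ALDOA part cannot be read. The hexokinase and phosphoglycerate mutase sums are higher in both knockdown libraries. The phosphofructokinase-1, pyruvate kinase, lactate dehydrogenase and pyruvate dehydrogenase kinase sums overlap.

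Around the members, 99 further genes of glucose metabolism were listed, and 76 were tested. None passed the edgeR test, which 0.641% of all tested genes passed, a share too small to make the absence of calls telling. At an unadjusted p under 0.05, 12 were lower and 2 higher, beside 8.19% and 6.79% of all tested genes. The median log2 fold change was -0.11, against -0.01 over all tested genes. In DESeq2 3 of the 76 passed, GCKR, PYGL and SUCLG1, all lower, where 2.99% of all tested genes passed, and in limma-voom 0. Among carriers and their regulators, TXNIP, which promotes the removal of GLUT1 from the cell surface, was at 1636 and 1382 CPM in Ctrl against 1046 and 1013 CPM in AFF4_KD, and SLC16A7 (MCT2) at 45.2 and 34.3 CPM in the Ctrl pair against 26.3 and 25.4 in the knockdown pair. Both were lower in each knockdown library, with log2 fold changes of -0.55 ± 0.13 and -0.62 ± 0.20 (SE, with an edgeR adjusted p of 0.119 and 0.209). ARRDC4, next in this list by p, went the other way, at 103 and 83.1 CPM in Ctrl against 120.6 and 120.6 CPM in AFF4_KD. Its log2 fold change was 0.37 ± 0.16 (SE, with an edgeR adjusted p of 0.350). The 17 glycogen and hexose genes held PYGL, the liver glycogen phosphorylase, at 114 CPM in Ctrl 1 and 108 in Ctrl 2, against 67.3 and 64.8 CPM in knockdown 1 and 2. PGM1, which links glycogen to glucose 6-phosphate, was at 123 and 128 CPM in Ctrl against 83.5 and 84.2 CPM in AFF4_KD. Their groups were separate, with log2 fold changes of -0.75 ± 0.15 and -0.58 ± 0.14 (SE, with an edgeR adjusted p of 0.0803 and 0.121). GYS2, the liver glycogen synthase, had 4 and 1 reads in Ctrl against 25 and 20 in AFF4_KD, and its log2 fold change of 3.06 ± 0.52 (SE, with an edgeR adjusted p of 0.0636) rests on those few reads.

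Among side enzymes, GCKR, a regulator of glucokinase, was at 37.7 and 42.7 CPM in the Ctrl pair against 24.04 and 23.3 in the knockdown pair, with a log2 fold change of -0.76 ± 0.18 (SE, with an edgeR adjusted p of 0.110). LDHD, a mitochondrial D-lactate dehydrogenase, had 5 and 12 reads in Ctrl against 20 and 22 in AFF4_KD, with both knockdown libraries above both Ctrl libraries and a log2 fold change of 1.22 ± 0.50 (SE, with an edgeR adjusted p of 0.315). In mitochondrial pyruvate use, MPC2, a subunit of the pyruvate carrier, was at 112 CPM in Ctrl 1 and 97.1 in Ctrl 2, against 69.3 and 74.4 CPM in knockdown 1 and 2, with a log2 fold change of -0.54 ± 0.16 (SE, with an edgeR adjusted p of 0.174). The scarce kinase PDK4 had 29 and 20 reads in Ctrl against 10 and 6 in AFF4_KD, with a log2 fold change of -1.65 ± 0.38 (SE, with an edgeR adjusted p of 0.112). Of the 20 tested genes listed under the tricarboxylic acid cycle, which include the cytosolic MDH1, 14 were negative, with a median of -0.10. SUCLG1, a subunit of succinyl-CoA ligase, was at 109 and 96 CPM in Ctrl against 56.6 and 58.5 CPM in AFF4_KD. ACO1 was at 164 and 148 CPM in Ctrl against 103 and 104 CPM in AFF4_KD. MDH1, the cytosolic malate dehydrogenase, was at 328 and 292 CPM in the Ctrl pair against 216 and 204 in the knockdown pair. SUCLG1, ACO1 and MDH1 all stood lower in each knockdown library. Their log2 fold changes were -0.83 ± 0.15, -0.59 ± 0.14 and -0.56 ± 0.14 (SE, with an edgeR adjusted p of 0.0718, 0.121 and 0.124). The 8 tested pentose phosphate genes had 0 past an unadjusted p under 0.05, beside 8.19% lower and 6.79% higher of all tested genes, and a median of -0.09.

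GC content moved with the spread of the Ctrl libraries among the members too. Across the 34 tested members the log2 ratio of Ctrl 2 to Ctrl 1 had a Spearman's rho of 0.74 with transcript GC content. The log2 ratio of knockdown 2 to knockdown 1 had 0.40 and the log2 fold change 0.06, as a description across genes that share libraries. The GC-rich PFKL and SLC16A3 (64.4% and 65.97%) were 0.93 and 0.93 higher in Ctrl 2 on the log2 scale. The value of BPGM, at 44.9% GC, was -0.53. SLC2A3 and PKLR, at 47% and 59.7% GC, had the same log2 fold changes after the GC correction, -0.980 and 1.47.

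**Figure D5:**
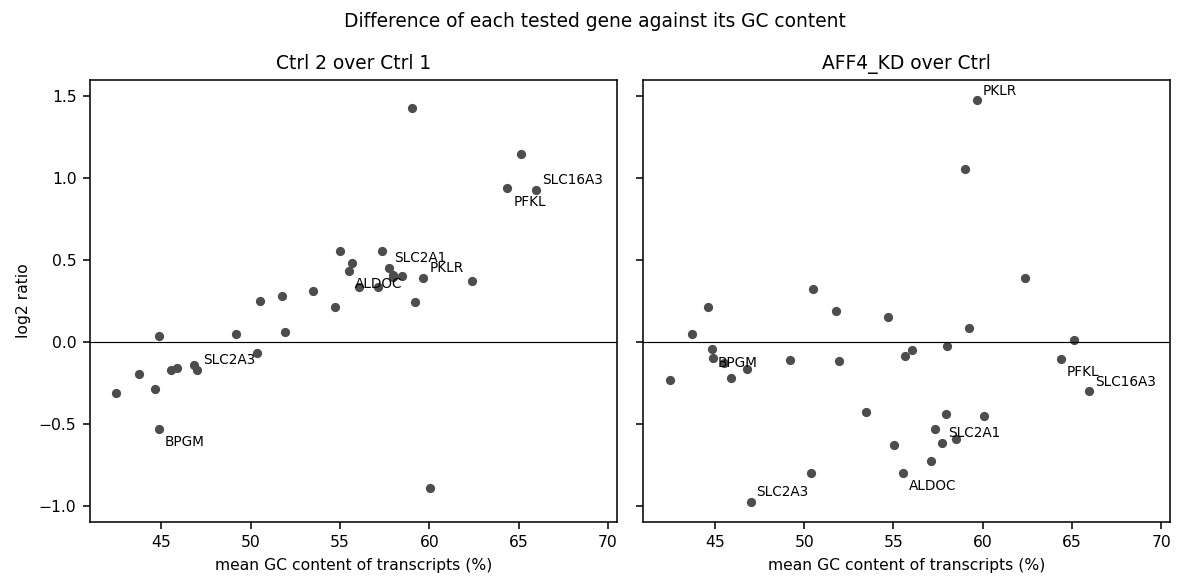
The log2 ratio of Ctrl 2 to Ctrl 1 (left) and the log2 fold change of knockdown over Ctrl (right) of the 34 tested genes against the mean GC content of their transcripts in percent. The left points climb with GC content (rho 0.74), with ALDOA, at few reads, far below at -0.91, and the right points do not (rho 0.06).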

How the data were processed

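Poly(A) RNA was made into dUTP strand-marked libraries, per the labels' protocols. The deposited values are the authors' whole-number counts of reads per gene symbol, and the submitters' processing notes name fastp 0.13.1, HISAT2 2.1.0, featureCounts 1.6.1 and hg38. Which annotation and strand setting were used, and how reads fitting several places were treated, was not given in the sources used here.

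Genes were kept with edgeR's filterByExpr (minimum count 10, minimum total 15), scaled by TMM and tested by group with edgeR 4.0.16's quasi-likelihood test in R 4.3.3, adjusted by Benjamini-Hochberg over all 13572 tested genes, with calls at an adjusted p under 0.05. The standard error is the size of the log2 fold change over the square root of F. Alternatives were scaling by RLE, by upper quartile or by library size alone, dropping the filter or asking for 5 CPM in 2 libraries, DESeq2 1.42.0, limma-voom (limma 3.58.1), a replicate block, a lowess GC correction (span 0.4), an adjusted p under 0.01 and each library left out. On simulated counts of 13453 genes, the test recovered 57% of 97 genes given a 2-fold change and 98% of 96 given a 4-fold change, and called 13 unchanged genes. The simulated counts had no trend with GC content and the same dispersion of a gene in both groups. The libraries here differ in both respects, so these rates may not hold for them. Intervals and errors cover these 4 libraries only, and PCR reads are not independent molecules. Members and lists were chosen with earlier results of these data known. Full values are given for members called, with an unadjusted p under 0.05, or at 50 CPM or more in either group, and for up to 3 genes of each further list by smallest p. The values of 1 further gene, counted in its list, are not reported here.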

Additional observations from a re-analysis of the deposited data

How the results depend on the processing

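All counts are given as higher, then lower. Over all genes (47 and 40), calls numbered 328 and 406 without a filter, 1 and 4 with the filter of 5 CPM in 2 libraries, 188 and 218 in DESeq2 (264 adjusted p not given), 2085 and 2129 after the GC correction, and 1 and 2 at an adjusted p under 0.01. With a library left out they ranged from 35 to 3407 higher and 11 to 3315 lower, the lone library being assumed to vary like the other group. Called members (1 and 1) numbered 1 and 9 without a filter, 0 and 0 with the stricter filter (31 tested), 1 and 4 in DESeq2, 4 and 12 after the GC correction, and 0 and 0 at an adjusted p under 0.01. With a library left out they ranged from 0 to 11 higher and 0 to 16 lower. The cause of these shifts was not tested. RLE, upper quartile and library-size scaling and limma-voom left both totals within 1.5 times the main counts. AFF4 was at -2.10 (edgeR adjusted p = 0.0552) with the stricter filter, and at -2.07 its adjusted p of 0.0268 misses 0.01.

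With the replicate number as a block, calls numbered 408 and 480 over all genes and 2 and 7 among members, and 2683 and 2694 and 5 and 14 with the GC correction as well. The labels give the groups the same numbers without saying what they share. Same-numbered libraries' deviations correlated at 0.285 across genes, over 2 pairs only, so the numbers were not taken to pair the libraries.

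Of the 34 tested members, 24 kept 1 sign in every alternative and 10 did not, in each case with a library left out. The value without Ctrl 1 and then without Ctrl 2 was -0.48 and 0.69 for SLC2A6, -0.50 and 0.43 for PFKL, -0.21 and 0.18 for PFKP, -0.30 and 0.17 for PKM, -0.69 and 0.23 for SLC16A3, 0.09 and -0.82 for ALDOA, -0.21 and 0.12 for TPI1, -0.04 and 0.21 for PFKFB3, 0.16 and -0.05 for LDHB, and 0.25 and -0.29 for BPGM. Among the further genes it was -0.33 and 0.56 for PC, 0.22 and -0.24 for SUCLA2, -0.51 and 0.27 for PYGB, -0.73 and 0.28 for GALK1, and -0.31 and 0.21 for OGDH. With 2 libraries in each group, differences of the size seen between Ctrl 1 and Ctrl 2 limit what can be called.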
